A study of Mus musculus with 460 samples.

Results

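The regulators of G protein signalling (RGS) described here are 6 genes, Rgs2, Rgs3, Rgs4, Rgs5, Rgs10 and Rgs16, taken by gene symbol from a table of 48440 genes. They were followed over 460 cells, each sequenced singly and labelled CAFs (cancer-associated fibroblasts), all of the mouse strain KrasLA1 with lung adenocarcinoma. Every cell is 1 sample and there is 1 group, with no untreated, healthy or second genotype beside it. The labels name no animal, age, culture or sort, so the cells count as 1 sample. No p-value or standard error was computed, and intervals cover counting error only.

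A G protein is switched on when a receptor loads its alpha subunit with GTP, and it is switched off when that GTP is hydrolysed. RGS proteins bind the active alpha subunit and speed up the hydrolysis, so that they shorten signals from G protein-coupled receptors. Rgs2, Rgs3, Rgs4, Rgs5 and Rgs16 belong to the R4 subfamily of short RGS proteins, and Rgs10 to another subfamily. In vessels, Rgs5 is a classic marker of pericytes, the mural cells wrapped around capillaries, and contraction of mural cells is driven by receptors that RGS proteins restrain. The anchors were 3 genes of mural cells, Mcam (the adhesion molecule CD146), Notch3 (a Notch receptor) and Abcc9 (a subunit of a potassium channel).

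The cells held 25029 to 240496 counts, with a median of 88701, so that 1 count in a median cell is 11.3 counts per 1000000 (CPM). Nonzero entries were equal to 1 in 19.4% of cases. Markers of fibroblasts were present throughout, with all 10 listed genes counted in at least 10% of cells and a summed level from 457 to 29368 CPM. All 15 markers of pericytes or vascular smooth muscle were counted as widely, from 402 to 21738 CPM in sum. Genes of both kinds were thus counted in cells labelled CAFs. Markers of other cells were low or uneven. The immune sum had a median of 76.2 CPM (0 to 10408), the endothelial sum a median of 14.9 (0 to 4957) and the epithelial sum a median of 624 (0 to 23952). The mesothelial and platelet sums had medians of 0 and reached 6216 and 279 CPM, with Ppbp and Gp9 at 0 in the table. Some cells thus held markers of another cell type at high levels, and doublets were not removed. The surfactant gene Sftpc was low in most columns around 127 cells, which form 2 runs of neighbouring columns of the table. A cell's own Sftpc count was not used for this call. The other 333 cells are called the columns with Sftpc, and the labels give no batch. Values within each set are given for the main relations.

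Rgs2, Rgs4, Rgs5 and Rgs16 lie on chromosome 1 in the GENCODE M21 annotation of GRCm38, the build called mm10 in the submitters' processing notes. Rgs5 (chr1:169655501-169695813, plus strand) and Rgs4 (chr1:169741477-169747642, minus strand) are immediate neighbours that point towards each other. The gap between them is 45.7 kb and holds 0 annotated genes. Rgs2 (chr1:143999338-144004161, minus strand) and Rgs16 (chr1:153740349-153745468, plus strand) lie elsewhere on that chromosome. Rgs3 is at chr4:62559847-62704001 on the plus strand and Rgs10 at chr7:128373621-128418758 on the minus strand. Rgs3, Rgs10 and Rgs16 each overlap 1 annotated gene (Gm11209, Gm15503 and Gm28513). Whether counting used strand is not stated, so reads of such partners cannot be told apart.

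The promoter windows of the members with the clearest patterns over cells, the neighbours Rgs5 and Rgs4 and the pair Rgs2 and Rgs16, are printed from RefSeq (GRCm38.p6). Each window is the 250 bases before the RefSeq start, 5′ to 3′ on the gene's own strand, and capitals mark a match to a searched motif. The windows are chr1:169655251-169655500 (Rgs5), chr1:169747643-169747892 (Rgs4), chr1:144004150-144004399 (Rgs2) and chr1:153740103-153740352 (Rgs16).
Rgs5: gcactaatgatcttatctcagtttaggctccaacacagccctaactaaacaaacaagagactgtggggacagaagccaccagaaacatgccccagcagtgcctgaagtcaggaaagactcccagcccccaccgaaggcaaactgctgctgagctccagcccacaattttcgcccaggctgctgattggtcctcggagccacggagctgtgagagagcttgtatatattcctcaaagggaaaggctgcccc
Rgs4: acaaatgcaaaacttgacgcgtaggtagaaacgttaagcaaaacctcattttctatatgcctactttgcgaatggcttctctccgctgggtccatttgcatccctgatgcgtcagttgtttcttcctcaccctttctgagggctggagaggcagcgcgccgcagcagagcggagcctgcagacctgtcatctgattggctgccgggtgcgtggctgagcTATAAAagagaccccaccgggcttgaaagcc
Rgs2: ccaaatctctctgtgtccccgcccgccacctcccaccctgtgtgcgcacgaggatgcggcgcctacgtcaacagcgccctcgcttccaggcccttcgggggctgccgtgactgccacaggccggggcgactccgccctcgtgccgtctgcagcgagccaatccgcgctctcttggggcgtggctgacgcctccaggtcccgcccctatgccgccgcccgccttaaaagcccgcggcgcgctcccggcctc
Rgs16: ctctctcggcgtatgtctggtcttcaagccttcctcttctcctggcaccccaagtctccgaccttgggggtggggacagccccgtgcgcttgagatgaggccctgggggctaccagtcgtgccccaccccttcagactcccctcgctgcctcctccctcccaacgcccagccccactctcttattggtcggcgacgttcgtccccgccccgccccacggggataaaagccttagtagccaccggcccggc

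G and C made up 72.4% and 66.4% of the windows of Rgs2 and Rgs16, 76.4% of that of Rgs10, which is not printed, and 53.6% of those of Rgs5 and Rgs4. The median over 32851 promoters was 52.4%. The search covered 6 motifs on both strands. The AP-1 site TGANTCA is in 6.75% of all windows of this length, the cyclic AMP response element TGACGTCA in 1.55%, the Nr4a site AAAGGTCA in 1.34%, the RBPJ site TGGGAA in 21.6%, TATAAA in 12.4% and the CArG box of serum response factor in 1.47%. The only match in these 4 windows was TATAAA in Rgs4, from 31 to 26 bases before the start. A missing match says only that these letters are not in this window.

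Rgs5 was counted at 2060 CPM (Poisson 95% interval 2046 to 2074). It was present in all 460 cells, from 9.24 CPM in the lowest through a median of 627 to 19439.5 CPM in the highest, and 25% of cells lay above 4299 CPM. Rgs4, a close relative of Rgs5, had 491 CPM (485 to 498) and ranged over cells from 0 through 70.7 to 5401 CPM. Both genes were thus present in nearly every cell at a low level and reached high levels in a minority.

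Rgs2, which acts mainly on the Gq class of alpha subunits and is itself induced quickly by stimuli, had 370.2 CPM (364 to 376). It ranged over cells from 0 through 116 to 4627 CPM. Rgs16, another inducible member, had 237 CPM (233 to 242) and a range from 0 through 53.2 to 3723 CPM. Rgs3, which exists in long and short forms, had 38.02 CPM (36.2 to 39.9) and ranged from 0 through 22.1 to 474 CPM. Rgs10, known best from immune cells and brain, had 24.4 CPM (23.0 to 26.0), from 0 through 5.86 to 233 CPM. The 10% of cells with the highest level held between 37.99% (Rgs5) and 57.1% (Rgs16) of a member's summed CPM.

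Detection followed the level only in part. Rgs4 was counted in 96.5% of cells (Clopper-Pearson 95% interval 94.4 to 98.0), Rgs2 in 94.6% (92.1 to 96.5), Rgs16 in 84.8% (81.2 to 87.9), Rgs3 in 68.9% (64.5 to 73.1) and Rgs10 in 50.2% (45.6 to 54.9). With every cell thinned to 56586 counts, which left 414 cells after 46 shallower ones were set aside, the shares were 87.4%, 92.8%, 80.7%, 62.3% and 44.9%, and Rgs5 was still counted in 100% of cells. Rgs4 had more counts than Rgs2 in sum and yet was counted in fewer thinned cells. All 6 members were counted together in 140 cells (30.4%), 5 in 41.5%, 4 in 21.3%, 3 in 6.09% and 2 in 3 cells.

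**Figure D1:**
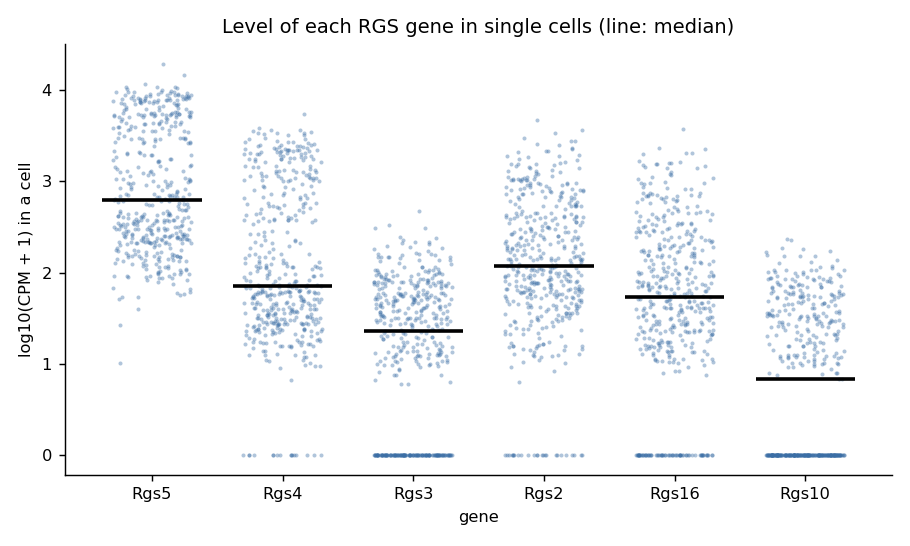
Level of each RGS gene in each of the 460 cells, as log10 of CPM with 1 added (vertical axis), by gene (horizontal axis). Points are cells and lines are medians, and cells of Rgs5 and Rgs4 lie densely in a lower range and again near the top, with cells at levels in between and medians of 627 and 70.7 CPM.

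On CPM per kilobase of merged exons the order was Rgs5 (453), Rgs4 (159), Rgs2 (102), Rgs16 (101), Rgs10 (14.3) and Rgs3 (3.52). On plain CPM, Rgs2 (364 to 376) stood above Rgs16 (233 to 242), and Rgs3 (38.02) above Rgs10 (24.4). Per kilobase, the intervals of Rgs2 (100.5 to 104) and Rgs16 (99.5 to 103) overlapped, so their order is not resolved on that scale. The merged exons of Rgs3 span 10.8 kb over several transcript forms, which lowers its value on this scale, and whether these barcode counts grow with gene length is not stated. Rgs5 led the 6 members per kilobase in 60.7% of cells, Rgs2 in 19.8%, Rgs16 in 14.6%, Rgs4 in 3.48%, Rgs10 in 1.09% and Rgs3 in 0.435%. On plain CPM the shares, in the same order of genes, were 66.1%, 21.1%, 10%, 2.17%, 0.217% and 0.435%.

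The 6 members made up 95.8% of the summed counts of 24 genes with an RGS name in the table, and Rgs5 alone 61.3%. These 24 include Rgs7bp (2847 counts) and Rgs9bp (50 counts), which encode binding proteins of RGS proteins and not RGS proteins. Of the other 18, 6 were counted in at least 10% of cells: Rgs7bp, a membrane anchor for RGS proteins (66.8 CPM), Rgs12 (30.8), Rgs17 (16.0), Rgs19 (11.6), Rgs9 (3.97) and Rgs11 (3.24). The remaining 12 reached at most 2.25 CPM, the level of Rgs1, a gene of lymphocytes. Rgs13 had no count. Taking 3 counts as the floor, this allows up to 0.0704 CPM and up to 0.652% of cells with a count, which is no limit on cells that express the gene. None of the 6 other genes reached a correlation of 0.2 in size with any member. Of all genes counted in at least 10% of cells, 0.157% (Rgs10) to 3.66% (Rgs5) reached 0.2 with a member. At or below -0.2 were 0.0286% (Rgs10) to 6.69% (Rgs5), so none among 6 genes lies near these shares.

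Relations over cells are Spearman correlations (rho) of the log of counts scaled to 10000 per cell. They are descriptions over cells that share 1 table and differ in depth. Values of at least 0.2, or at most -0.2, are counted as past the size limit and all others are called weak. Against the anchor score, the mean z score of Mcam, Notch3 and Abcc9, 3 members were at or above 0.2 and 1 at or below -0.2. Of 13972 genes counted in at least 10% of cells, 4.8% passed the upper limit and 6.41% the lower.

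Rgs5 followed the anchors most closely of the 6, with a rho of 0.711 with the score, the 19th highest of 13972 genes. Its values with Mcam, Notch3 and Abcc9 were 0.612, 0.724 and 0.618, beside those of the anchors with each other (0.753 for Mcam with Notch3, 0.568 for Mcam with Abcc9 and 0.539 for Notch3 with Abcc9). Rgs4 had a rho of 0.660 with the score, the 24th highest, and 0.599, 0.634 and 0.572 with the single anchors. In the columns with Sftpc the values with the score were 0.668 for Rgs5 and 0.639 for Rgs4, and in the columns low in Sftpc they were 0.788 and 0.709. Both genes thus went with the anchors in either set of columns.

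Rgs3 had a smaller rho of 0.285 with the score (0.275, 0.259 and 0.231 with Mcam, Notch3 and Abcc9). Rgs2 ran the other way, at -0.241 with the score (-0.232, -0.256 and -0.179). Rgs10 (0.0897) and Rgs16 (0.0603) were weak. With the summed fibroblast markers the order turned round, with -0.589 for Rgs5, -0.540 for Rgs4, -0.219 for Rgs3 and 0.250 for Rgs2. In the columns with and low in Sftpc these were -0.575 and -0.616 for Rgs5 and -0.530 and -0.556 for Rgs4. For Rgs3 they were -0.164 and -0.355 and for Rgs2 0.296 and 0.141. Rgs3 was thus weak in the columns with Sftpc and Rgs2 in those low in it. No member reached 0.2 in size with the immune, endothelial, epithelial, platelet or cycling sums over all cells. Rgs5 had 0.0658 with the immune sum (0.171 in the columns with Sftpc and -0.0126 in those low in it) and 0.00952 with the epithelial sum (0.188 and 0.0461). Within a set of columns some values did pass the limit. Rgs4 had 0.218 with the endothelial sum in the columns with Sftpc and 0.0417 in those low in it, and Rgs2 had -0.0965 and -0.251 with the immune sum. Rgs10 had 0.0258 with the immune sum over all cells. The mesothelial sum, at 0 in the median cell, had -0.255 with Rgs5.

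**Figure D2:**
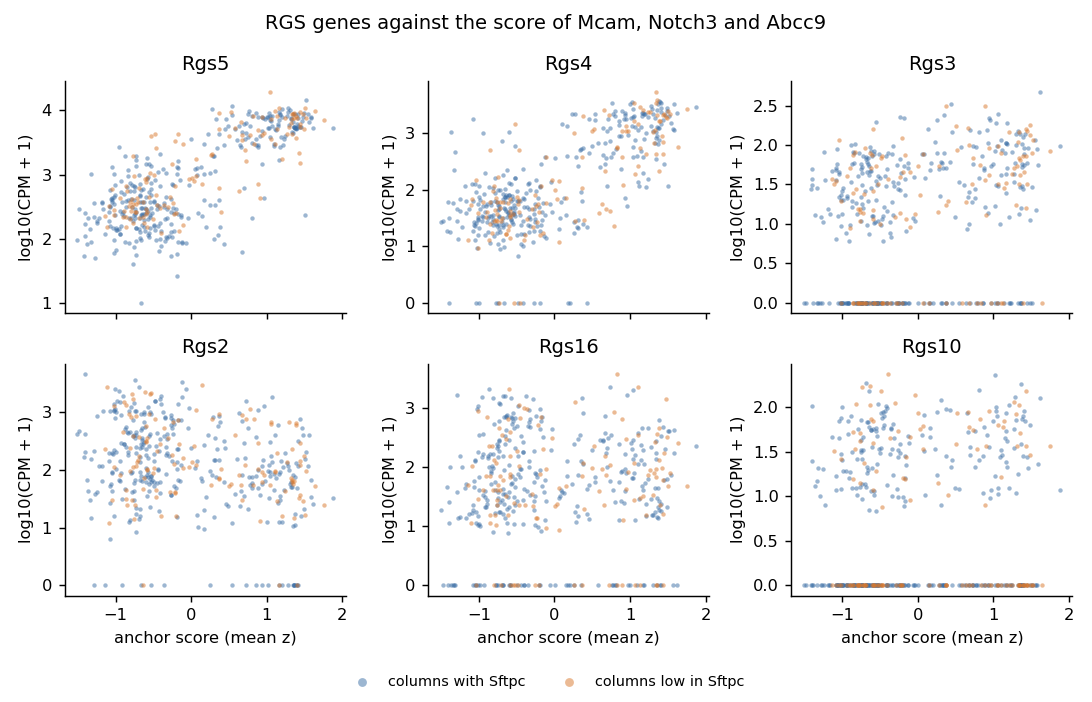
Each panel plots log10 of CPM with 1 added of 1 RGS gene (vertical axis) against the anchor score of Mcam, Notch3 and Abcc9 in mean z units (horizontal axis), 1 point a cell, coloured by set of columns. Rgs5 and Rgs4 run from a lower left to an upper right cloud (rho 0.711 and 0.660), and the panels of Rgs16 and Rgs10 show no such slope.

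Depth moved with some of these values. The rho with a cell's total counts was -0.380 for Rgs5, -0.249 for Rgs4, 0.160 for Rgs2 and 0.25 for Rgs16, and it was -0.238 for the anchor score. In the 414 cells thinned to 1 depth, the rho with the anchor score was 0.697 for Rgs5 and 0.660 for Rgs4, and that between Rgs4 and Rgs5 was 0.724. These values lay within 0.1 of those of all 460 cells at full depth, and the 46 shallowest cells have no part in them.

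Among the 15 pairs of members, 3 were at or above 0.2, 2 at or below -0.2 and 10 were weak. The neighbours Rgs4 and Rgs5 had the largest value, 0.744 (0.738 and 0.767 in the columns with and low in Sftpc), and 0.521 remained after the anchor score was partialled out. Among all 13974 genes tested against Rgs5, 3.66% reached 0.2 and 6.69% reached -0.2. Rgs3 had 0.274 with Rgs5 and 0.240 with Rgs4, and these were 0.105 and 0.0726 once the anchor score was partialled out. Rgs3 with Rgs4 was weak in the columns with Sftpc (0.198, against 0.336 in those low in it), and without the largest cluster of cells, described further on, both Rgs3 pairs were weak (0.0825 and 0.0166). Rgs2 had -0.292 with Rgs5 (-0.328 and -0.206 in the columns with and low in Sftpc) and -0.267 with Rgs4. Both were weak with the anchor score partialled out (-0.177 and -0.148) and without the largest cluster (-0.117 and -0.0488). The pair of Rgs2 and Rgs16 stood just under the limit at 0.195. It was past the limit with the anchor score partialled out (0.216) and in the columns low in Sftpc (0.234). In the columns with Sftpc (0.181) and in thinned cells (0.159) it was weak.

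**Figure D3:**
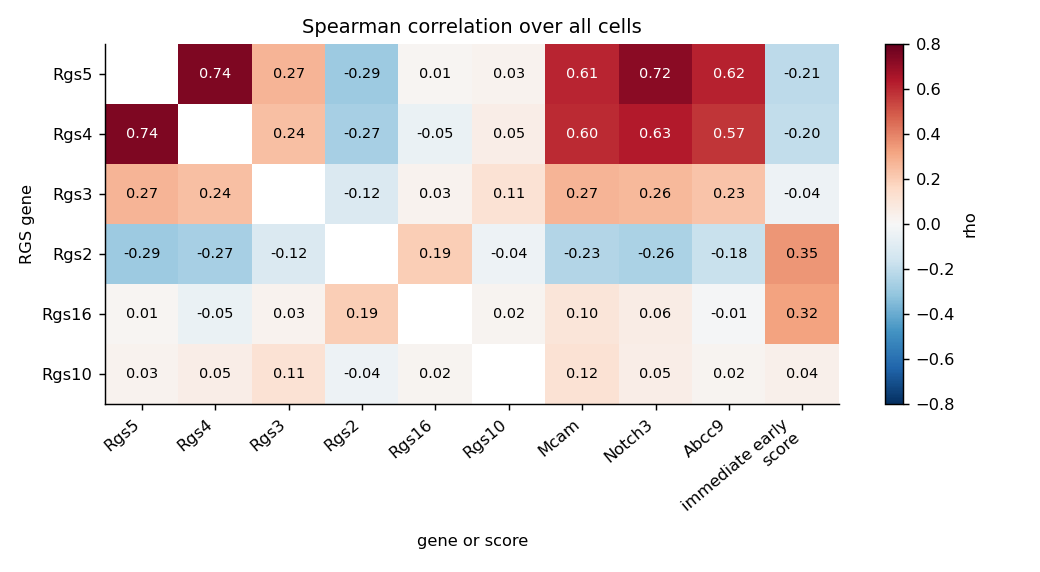
Spearman rho over the 460 cells between the 6 RGS genes (rows) and each other, the 3 anchors and the immediate early score (columns), with the colour scale from -0.8 to 0.8. Rgs5, Rgs4 and, less so, Rgs3 form a block with the anchors, and Rgs2 and Rgs16 share the positive values with the immediate early score.

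To see where the members sat, the cells were clustered without the 6 members and the 3 anchors, which gave 6 clusters. Cluster 1 (177 cells, 38.5%) was led by Cxcr4, Adcy8, Higd1b, Plxdc1 and Gja4 and was pericyte-like by its markers. Cluster 3 (78 cells) was led by Sfrp4, Mmp3, Dpt and C3 and was fibroblast-like. Cluster 2 (87 cells) was led by the cycling genes Mki67 and Top2a. Clusters 4 (64 cells, Bmp7 and Ibsp), 5 (43 cells, Col8a1 and Alx4) and 6 (11 cells, Hand2 and Hoxa10) carry no name. Other cluster settings gave 7 or 13 clusters. Cluster 1 held 37.2% of the columns with Sftpc and 41.7% of those low in it.

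Rgs5 had a median of 5355 CPM in cluster 1, with quartiles of 2939 and 7747. Its medians were 334, 313, 247, 567 and 215 CPM in clusters 2 to 6, and the upper quartile of none of them reached 2939 CPM. The whole ranges overlapped, since the lowest cell of cluster 1 had 144 CPM and the highest of cluster 5 had 9445. Rgs4 had a median of 1091 CPM in cluster 1 (quartiles 376 and 2074) and medians from 36.3 to 62.1 CPM in the others. The next highest cluster for both was cluster 5, where the means, 1538 CPM for Rgs5 and 365 CPM for Rgs4, lay far above the medians. Mcam (mean 1377 CPM) and Notch3 (636 CPM) were also high there. Abcc9 was less so, with a mean of 458 CPM in cluster 5 against 785 CPM over all cells. Its mean in cluster 4 was lower (383 CPM), but its median was higher in cluster 4 (232 CPM) than in cluster 5 (205 CPM).

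Clusters held 62.4% of the log variance of Rgs5, the 7th highest of 13975 genes, and 54.6% of that of Rgs4, the 21st. The anchors, also left out of the clustering, had 65.5% (Notch3), 61.8% (Mcam) and 39.97% (Abcc9), and the median gene had 2.11%. For the other members the shares were 9.69% (Rgs2), 8.89% (Rgs3), 6.16% (Rgs10) and 3.03% (Rgs16).

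Rgs3 also had its highest means there, 58.6 CPM in cluster 1 and 51.4 in cluster 5, against 9.48 to 28.03 in the others. Rgs2 was lowest in cluster 1, with a mean of 195 CPM and a median of 65.2. Its means were 465, 559, 539, 270 and 257 CPM in clusters 2 to 6, so clusters 5 and 6 lay nearer to cluster 1. Its medians in clusters 2 to 6 were 240, 183, 222, 140 and 156 CPM. Rgs16 had means from 164 to 273 CPM in clusters 1 to 5 and 18.1 CPM in the 11 cells of cluster 6. Rgs10 was counted in 67.8% (56.9 to 77.4) of the cells of cluster 2 and in 30.8% (20.8 to 42.2) of cluster 3, or in 63.9% and 21.4% of thinned cells.

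**Figure D4:**
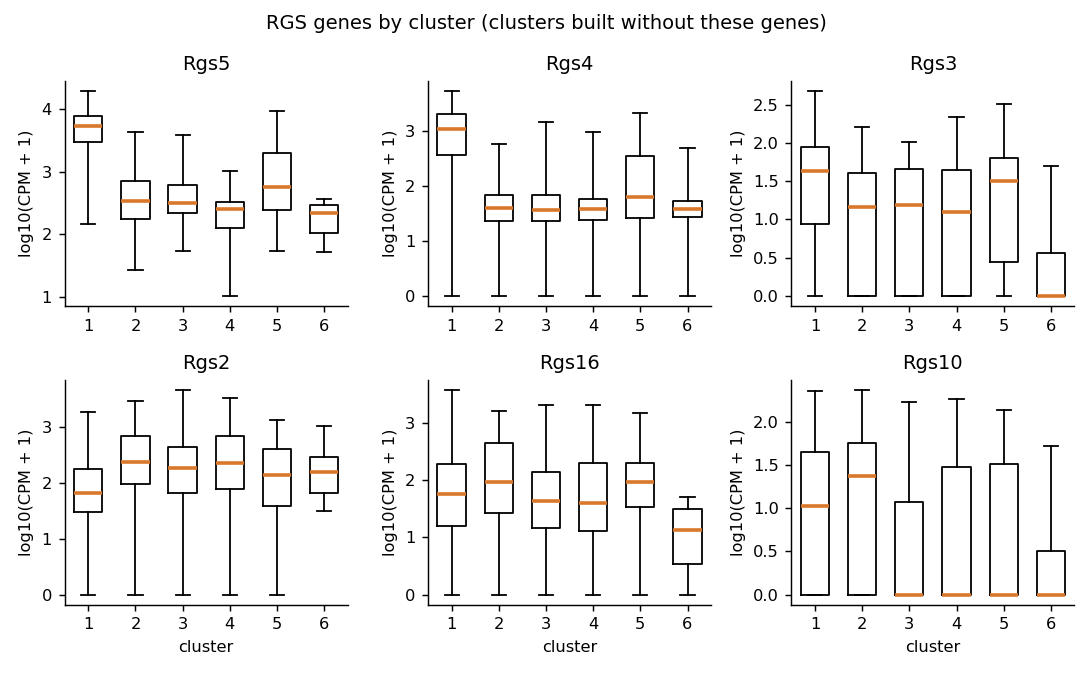
Level of each RGS gene as log10 of CPM with 1 added (vertical axis) in the 6 clusters (horizontal axis), which were built without these genes. Boxes span the quartiles, orange lines are medians and whiskers reach the lowest and highest cell; the boxes of Rgs5 and Rgs4 in cluster 1 lie above those of every other cluster.

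The pooled relations mix differences between clusters with those within them. Inside cluster 1, Rgs5 and Rgs4 had a rho of 0.510 and 0.513 with the anchor score. In clusters 2, 3, 4 and 5 the values were 0.145, 0.283, -0.148 and 0.461 for Rgs5 and 0.0405, 0.298, -0.275 and 0.575 for Rgs4. The relation with the anchors was thus weak in cluster 2, and in cluster 4 it was weak for Rgs5 and negative for Rgs4. Rgs4 with Rgs5 stayed positive in clusters 1 to 5, at 0.671, 0.380, 0.311, 0.280 and 0.503. Inside cluster 1 the rho of Rgs5 with total counts was -0.450, so depth moved with Rgs5 there too. Rgs2 and Rgs3, at -0.0872 and 0.184 with the anchor score, were weak inside cluster 1.

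The genes whose pattern over the cells was most like that of Rgs5, of 10431 counted in at least 25% of cells, were Pdzd2 (a PDZ domain protein, rho 0.736), Notch3 (0.724), Col5a3 (a collagen V chain, 0.700) and Ednra (the endothelin A receptor, 0.696). The least like were Cxcl14 (a chemokine, -0.669) and Cdh11 (a cadherin of mesenchymal cells, -0.614). Rgs4 had Pdzd2 (0.661), Notch3 (0.634), Gucy1b3 (a subunit of the nitric oxide receptor guanylate cyclase, 0.634) and Col5a3 (0.632) at its top. At its bottom were Pdgfra (the fibroblast PDGF receptor, -0.599) and Igfbp4 (-0.586). Rgs3 was nearest to Postn (periostin, 0.327), Cspg4 (the pericyte proteoglycan NG2, 0.325), Ndufa4l2 (0.314) and Col5a3 (0.305), and farthest from Pmp22 and Cxcl14 (both -0.276).

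The nearest genes of Rgs2 and Rgs16 were of another kind. Rgs2 was led by Fosl2 (an AP-1 transcription factor, 0.429), Thbs1 (thrombospondin 1, 0.408), Nr4a2 (0.407) and Nr4a3 (0.398; both orphan nuclear receptors), and was least like Pdzd2 (-0.318) and Emid1 (-0.293). Thbs1 was at 0.299 in the columns low in Sftpc. Rgs16 was led by Fosl2 (0.395), Csrnp1 (0.382), Nr4a1 (0.382) and Nfkbiz (a regulator of NF-kappaB, 0.374), and was least like Txnip (-0.244, but -0.0451 in the columns low in Sftpc) and the ribosomal RNA Rn18s-rs5 (-0.240). Rgs10 had small values with its nearest genes, 0.266 (Rxra), 0.254 (Chst2), 0.253 (Rac1) and 0.247 (Ywhab), and it had -0.219 with Sned1, among the least like. Only 0.157% of genes reached 0.2 with Rgs10, a gene with no count in about as many cells as it was counted in.

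Immediate early genes are transcription factors and regulators that cells switch on within minutes of a stimulus, growth factors and the handling of tissue among them. All 25 genes of the list were counted in at least 10% of cells, and Nr4a1 (2162 CPM), Fos (2110 CPM) and Fosb (1790 CPM) were the most abundant. With Rgs2, 12 of 25 reached 0.2 and 0 reached -0.2, with a median rho of 0.1999. The background was 1.25% and 0.53% of all genes, with a median of 0.000896. With Rgs16, 13 of 25 reached 0.2 and 0 reached -0.2, with a median of 0.209, against 0.73% and 0.0429% of all genes and a median of 0.0146. With Rgs5 the counts were 0 and 7 and the median -0.114, against 3.66% and 6.69% of all genes and a median of -0.0405. With Rgs4 they were 0 and 7 and the median -0.0869, against 3.45% and 4.95% of all genes and a median of -0.0257. With Rgs3 and Rgs10 none of the 25 passed either limit (0.63% and 0.222% of all genes for Rgs3, 0.157% and 0.0286% for Rgs10).

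Not all immediate early genes took part equally. Fos itself had 0.158 with Rgs2 and 0.133 with Rgs16, while Nr4a2 had 0.407 and 0.304 and was at -0.397 with Rgs5. Myc (0.152) and Klf2 (0.0844) were the highest of the list with Rgs5. Against a score of the list, the mean z of its 25 genes, Rgs2 had 0.354 (0.344 in the columns with Sftpc and 0.366 in those low in it) and Rgs16 had 0.323 (0.292 and 0.400). Of 13950 genes, 2.1% reached 0.2 with this score and 0.731% reached -0.2. Rgs2 ranked 73rd and Rgs16 ranked 100th from the top.

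Rgs5 (-0.209), Rgs4 (-0.196), Rgs3 (-0.0436) and Rgs10 (0.0384) had negative or weak values with the score, which had -0.152 with the anchor score. Rgs5 was weak with thinned counts (-0.168). Inside clusters 1 to 5 it was at -0.109, 0.171, -0.0235, -0.0473 and -0.289, and Rgs4 was at -0.0385, -0.136, 0.0868, -0.197 and -0.0664. Without cluster 1 both were weak (-0.0737 and -0.0928). Inside clusters 1 to 5 the rho with the immediate early score was 0.393, 0.201, 0.322, 0.145 and 0.242 for Rgs2 and 0.431, 0.125, 0.241, 0.184 and 0.385 for Rgs16. It was positive in each, and weak in cluster 4 for Rgs2 and in clusters 2 and 4 for Rgs16. The score had a rho of 0.202 with total counts, and with thinned counts the values were 0.358 and 0.304. Partialling out the score left 0.0904 between Rgs2 and Rgs16.

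**Figure D5:**
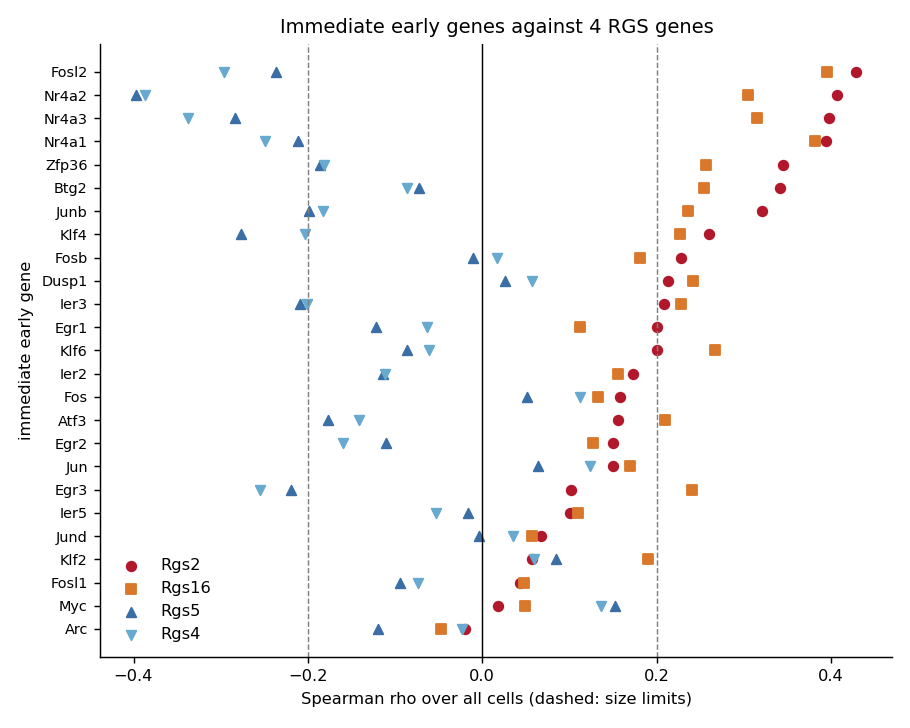
Spearman rho over the 460 cells (horizontal axis, dashed lines at the limits of -0.2 and 0.2) of the 25 immediate early genes (vertical axis) with Rgs2, Rgs16, Rgs5 and Rgs4. For Fosl2, Nr4a2, Nr4a3 and Nr4a1 the points of Rgs2 and Rgs16 lie right of 0.2 and those of Rgs5 and Rgs4 left of -0.2.

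The genes that RGS proteins work with, and genes of other proteins with an RGS homology domain, were taken as 5 lists. In these lists 84 genes were counted in at least 10% of cells. With Rgs5, 17 reached 0.2 and 6 reached -0.2. Over all genes, 3.66% reached 0.2 with Rgs5 and 6.69% reached -0.2, so the positive count lay above the background and the negative count near it. The lists were chosen with earlier results of these data known. They hold Kcnj8, one of the pericyte markers, and Cxcr4 and Adcy8, which led cluster 1. The higher positive count thus describes these lists and is no result about partners of RGS proteins at large. The counts were 17 and 3 for Rgs4 (3.45% and 4.95% of all genes), 6 and 0 for Rgs3 (0.63% and 0.222%) and 1 and 3 for Rgs2 (1.25% and 0.53%). They were 1 and 0 for Rgs16 (0.73% and 0.0429%) and 0 and 0 for Rgs10 (0.157% and 0.0286%).

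Receptors held the largest values. Of 31 receptors, 7 reached 0.2 with Rgs5 (3.66% of all genes did) and 4 reached -0.2 (6.69% of all genes did). Their median was -0.0568, beside -0.0405 over all genes. The most abundant were F2r, the thrombin receptor (1082 CPM, rho 0.556 with Rgs5), Ednra (928 CPM, 0.696) and S1pr3, a receptor for sphingosine 1-phosphate (887 CPM, 0.503). These 3 had 0.539, 0.611 and 0.467 with Rgs4, 0.243, 0.247 and 0.290 with Rgs3, and -0.240, -0.216 and -0.113 with Rgs2. The lowest with Rgs5 was Lpar1, a receptor for lysophosphatidic acid (-0.249).

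The G protein subunits had smaller values with Rgs5 than F2r, Ednra and S1pr3. Of 10 alpha subunits, 1 reached 0.2 with Rgs5 (Gna12, 0.227) and 1 reached -0.2 (Gnal, -0.276), with a median of 0.0200 and the all-gene shares of 3.66% and 6.69%. With Rgs4, 2 reached 0.2 (Gna12, 0.241, and Gnao1, 0.202) and 1 reached -0.2 (Gnal, -0.251), beside 3.45% and 4.95% of all genes. With Rgs2, 1 reached 0.2 (Gnal, 0.210, against 1.25% of all genes) and 0 reached -0.2 (0.53% of all genes). Gnai2 (648 CPM) and Gnaq (321 CPM), the abundant substrates of RGS proteins, had 0.0818 and 0.142 with Rgs5. With Rgs2 they had 0.00206 and -0.115. Of 11 beta and gamma subunits only Gng11 (171 CPM) reached 0.2 with Rgs5 (0.460, and 0.420 with Rgs4), and 0 reached -0.2. Their median with Rgs5 was -0.0583, and the all-gene shares were 3.66% and 6.69%. Gnb1, the most abundant of them at 422 CPM, had 0.115 with Rgs5.

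Of 20 effectors, 7 reached 0.2 with Rgs5 (3.66% of all genes did) and 1 reached -0.2, a share near the 6.69% of all genes. Their median was 0.0677. Kcnj8, the pore partner of Abcc9 in its potassium channel, had 0.546, and it is also one of the pericyte markers. The adenylyl cyclases, which make cyclic AMP, ran from 0.420 for Adcy8 to -0.448 for Adcy7, the only negative value among those tested. The most abundant effectors, Rhoa (609 CPM), Rock2 (309 CPM) and Itpr1 (275 CPM), had 0.0648, -0.0606 and -0.198. Of 12 other proteins with an RGS homology domain, 1 reached 0.2 with Rgs5, the receptor kinase Grk5 (0.202, and 0.218 with Rgs4), and 0 reached -0.2. Their median was -0.0176, and the all-gene shares were 3.66% and 6.69%. Arhgef12, the most abundant of them at 394 CPM, had -0.0100.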

How the data were processed

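The authors deposited 1 table of molecular barcode counts, whole numbers per gene in 460 columns that match the sample titles. Per the submitters' processing notes, STAR, HTSeq and mm10 were used. How reads became barcode counts is not given in the sources used here. Members and gene lists were chosen with earlier results of these data known, and the immediate early score and the cells outside the largest cluster were added after seeing the data. No cell was left out, 0 columns were identical, and no doublet caller was run. A symbol carried by several identifiers (119 cases) was read from the identifier with the larger summed count. GENCODE M21 matched 48058 of 48440 identifiers.

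CPM is the summed count per 1000000 summed counts, or a cell's count per 1000000 of its own, and cluster means average cells. Correlations used the log of 1 plus counts scaled to 10000. Columns were called low in Sftpc where over 50% of the 20 nearest columns had under 30 CPM. Clusters came from scanpy 1.11.5 with igraph 0.11.9 at resolution 0.5, from 15 neighbours over 20 principal components of 2000 variable genes. A cluster was named only where at least 3 markers of a list, anchors included, were counted in 25% of its cells and its score was highest there.

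Named genes were the members, anchors and RGS family, for each member the 4 genes with the highest and 2 with the lowest rho (ribosomal protein, mitochondrial and unnamed genes left out), and for each list the 3 with the highest CPM, the 2 highest and the lowest with Rgs5 and, for immediate early genes, the 2 highest with Rgs2 and with Rgs16. A gene that this rule selects for Rgs10 is not reported here. Lead genes of clusters and the figure's Nr4a3 stand beside these. Tables were handled in pandas 2.3.3, correlations in scipy 1.17.1 and numpy 2.4.6 and figures in matplotlib 3.10.9, under Python 3.11.15, with scran 1.30.0 in R 4.3.3 for size factors. The correlation step was tested on simulated data. Alternatives changed the correlation, normalization, depth, count and size limits, cells, columns and cluster settings.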

Additional observations from a re-analysis of the deposited data

How the results depend on the processing

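Of 352 values recomputed under alternatives, 0 changed sign past the size limit and 69 moved by more than the tolerance (0.1 in rho, 10 percentage points of variance, or the counting interval). Of those, 28 were levels and 10 were shares of cells counted. Most of the correlations that moved did so where the largest cluster was taken alone or left out. Within it alone the rho with the anchor score was 0.510 for Rgs5, 0.513 for Rgs4, 0.184 for Rgs3 and -0.0872 for Rgs2, and Rgs5 had 0.169 with Rgs3 and -0.130 with Rgs2, while Rgs16 had 0.431 with the immediate early score. Without that cluster the anchor values were 0.226, 0.166, 0.0980 and -0.0310. Rgs4 with Rgs5 was then 0.367, Rgs3 with Rgs5 0.0825, Rgs3 with Rgs4 0.0166, Rgs2 with Rgs5 -0.117, Rgs2 with Rgs4 -0.0488 and Rgs2 with the immediate early score 0.252. Of the 4 members past the limit with the anchor score, 2 were past a limit of 0.3, 2 within the largest cluster and 1 without it. Pearson correlations gave 0.812 for Rgs5 and 0.774 for Rgs4. The variance of Rgs4 between clusters was 66.2% at a resolution of 1.0. Levels were 0.898 to 1.26 times the main value over their alternatives. The cause was not tested. The median depth was 76488 counts in the columns low in Sftpc and 92997 in the others, and Rgs10 and Rgs3 had median counts of 3 and 4 in cells where they were counted, which limits what their correlations can show. Counts need not be single molecules, so Poisson intervals may be too narrow. No paired analysis was possible because there is 1 group.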
